A study of Mus musculus with 12 samples.

Results

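The ascites of mice that carried FAKWT ovarian tumour cells and received vehicle by gavage was compared with the ascites of untreated mice carrying FAKWT cells, over 750 immune genes. The comparison rests on 6 of the 12 samples of the series, 3 vehicle samples and 3 untreated FAKWT samples, chosen by their titles. In every group each mouse had received 5000000 tumour cells intraperitoneally, ascites was collected on day 21, and RNA was prepared from 2000000 cells of that fluid, tumour and host cells together. Vehicle mice were gavaged 2 times a day with the carrier and no drug, and untreated FAKWT mice were not gavaged, as far as the labels say. The other groups, used here only as yardsticks, were FAKWT with the FAK inhibitor VS4716 at 100 mg per kg by gavage 2 times a day (3 samples) and untreated FAKKD (3 samples). FAK is focal adhesion kinase, a tyrosine kinase of cell adhesion sites, and FAKKD is an abbreviation that the labels do not expand. The carrier, the length of treatment, and the strain and age of the mice are given by neither the labels nor the table. No label states that replicates are different mice, so each p-value speaks only of the spread among these tubes of RNA. That spread was larger than counting error, and how much of it is technical is not known.

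The labels of the vehicle samples disagree among themselves: their titles name FAKWT and their genotype field names FAKKD. Titles were followed, and the distance of the vehicle samples to both untreated groups is given below. The transcript of FAK itself, Ptk2, is not on the list of 750, so the genotype could not be read from it. Expression had been measured with NanoString probes, colour-coded barcodes that are counted one molecule at a time. The deposited values are log2 normalized counts, and 2 raised to each value was a whole number times a factor of its sample, so counts could be recovered. They summed to 688840 ± 88633 per vehicle sample and 665661 ± 53328 per untreated FAKWT sample (SD, n = 3 each). The sample factor was 0.788 ± 0.094 with vehicle and 0.753 ± 0.085 in untreated FAKWT (SD, n = 3 each, exact two-sided permutation p = 0.7). It stood at 1.17 ± 0.063 with the inhibitor and 1.46 ± 0.19 in FAKKD (SD, n = 3 each). The median gene of the panel lay at a log2 value of 6.78 ± 0.097 with vehicle and 6.66 ± 0.11 in untreated FAKWT (SD, n = 3 each), a difference of 0.12 with an exact two-sided permutation p of 0.3, where 3 against 3 samples can give no p under 0.1. Because of that shift, results over the panel and over gene lists are given as deposited and relative to the panel, that is, after every sample was moved to the same median gene. A single gene's log2 fold change of vehicle minus untreated FAKWT is as deposited unless stated, and relative to the panel it is lower by 0.12 for every gene.

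Ascites of ovarian cancer holds tumour cells together with macrophages, lymphocytes, mast cells and other host cells, and the panel reads all of them at once. Vehicle gavage is the usual control for an oral drug, because handling, swallowing and the carrier itself can act on immune cells without any drug. An untreated group shows what the animal looks like without those steps. In such bulk samples, fewer cells of a type and less RNA per cell cannot be told apart.

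Vehicle samples were little farther from untreated FAKWT samples than samples of one group were from each other. The distance used is the median, over 750 genes, of the absolute difference in log2 value between a pair of samples. As deposited it was 0.23 to 0.37 between vehicle and untreated FAKWT samples, 0.21 to 0.29 among the 3 vehicle samples and 0.19 to 0.29 among the 3 untreated FAKWT samples. Vehicle samples stood 0.71 to 1.21 from untreated FAKKD samples and 0.63 to 0.85 from inhibitor samples. Relative to the panel the distances were 0.23 to 0.35 to untreated FAKWT, 0.21 to 0.27 within vehicle and 0.19 to 0.25 within untreated FAKWT, against 0.60 to 0.75 to FAKKD and 0.50 to 0.64 to the inhibitor. The ranges to FAKKD and to the inhibitor did not overlap the range to untreated FAKWT on either scale.

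**Figure D1:**
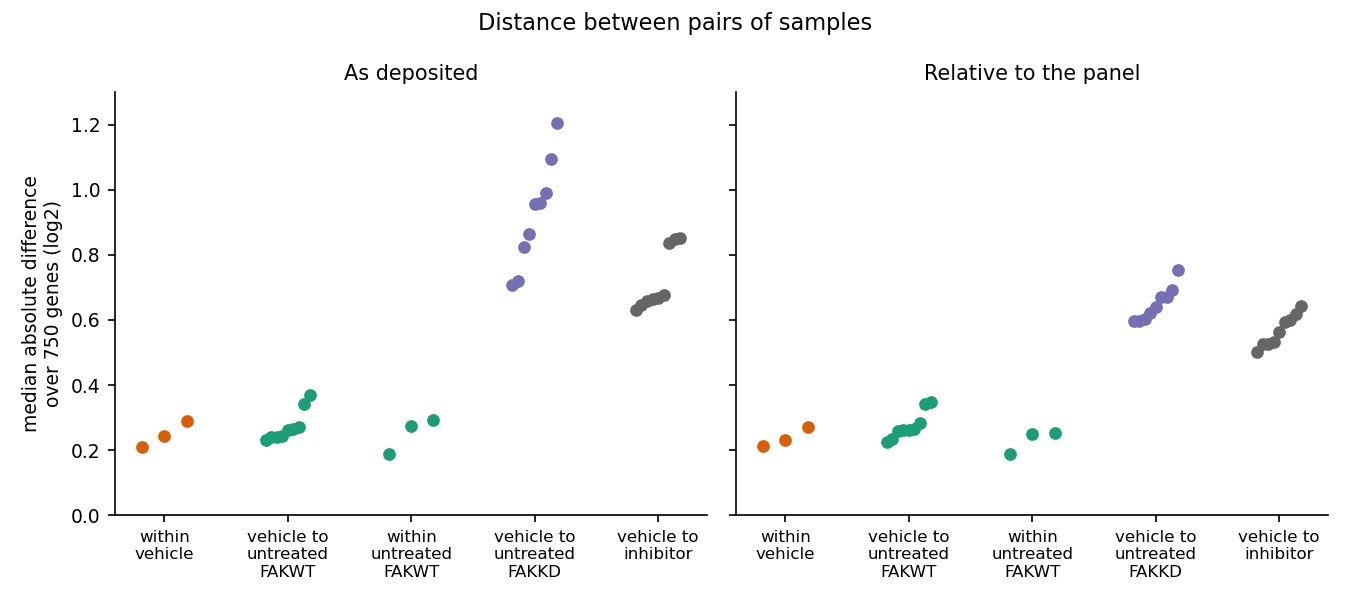
Median absolute log2 difference over 750 genes for each pair of samples (1 point a pair), as deposited on the left and relative to the panel on the right, with the kind of pair on the x axis. Pairs of vehicle and untreated FAKWT samples reach 0.37 at most, below every pair of a vehicle and a FAKKD sample.

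Gene by gene, limma called 0 of 750 genes between vehicle and untreated FAKWT on either scale, at a Benjamini-Hochberg adjusted p of 0.05 (0% of the panel). At an unadjusted p under 0.05, limma gave 93 genes as deposited (12.4%), 73 higher with vehicle (9.73%) and 20 lower (2.67%). On the scale relative to the panel it gave 99 (13.2%), 51 higher (6.8%) and 48 lower (6.4%). The 3 vehicle samples did not overlap the 3 untreated FAKWT samples for 121 genes as deposited (16.1%), 90 with vehicle higher (12%) and 31 with vehicle lower (4.13%), and for 145 genes relative to the panel (19.3%), 66 higher (8.8%) and 79 lower (10.5%). The smallest adjusted p was 0.101 as deposited and 0.0899 relative to the panel. Over all genes the median log2 fold change was 0.06 as deposited, with 60.5% of genes positive, and -0.06 relative to the panel, with 43.6% positive, so the balance of higher and lower genes turned with the scale. From the 5th to the 95th percentile, log2 fold changes ran from -0.36 to 0.73 as deposited and from -0.48 to 0.61 relative to the panel.

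A missed threshold does not show that vehicle and untreated samples were alike, so the intervals of the differences matter. As deposited the 95% interval of the log2 fold change lay within -1 to 1, a 2-fold change either way, for 538 genes (71.7%), and within -0.5 to 0.5 for 246. Relative to the panel the counts were 563 (75.1%) and 232. Of the 212 genes whose interval reached past 2-fold as deposited, 93 had a mean recovered count under 20, where counting error is largest. Log2 fold changes beyond 1 in size were estimated for 17 genes as deposited, 13 higher and 4 lower with vehicle, and groups did not overlap for 7 of the 17. There were 15 such genes relative to the panel, 9 higher and 6 lower, and groups did not overlap for 6 of them.

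**Figure D2:**
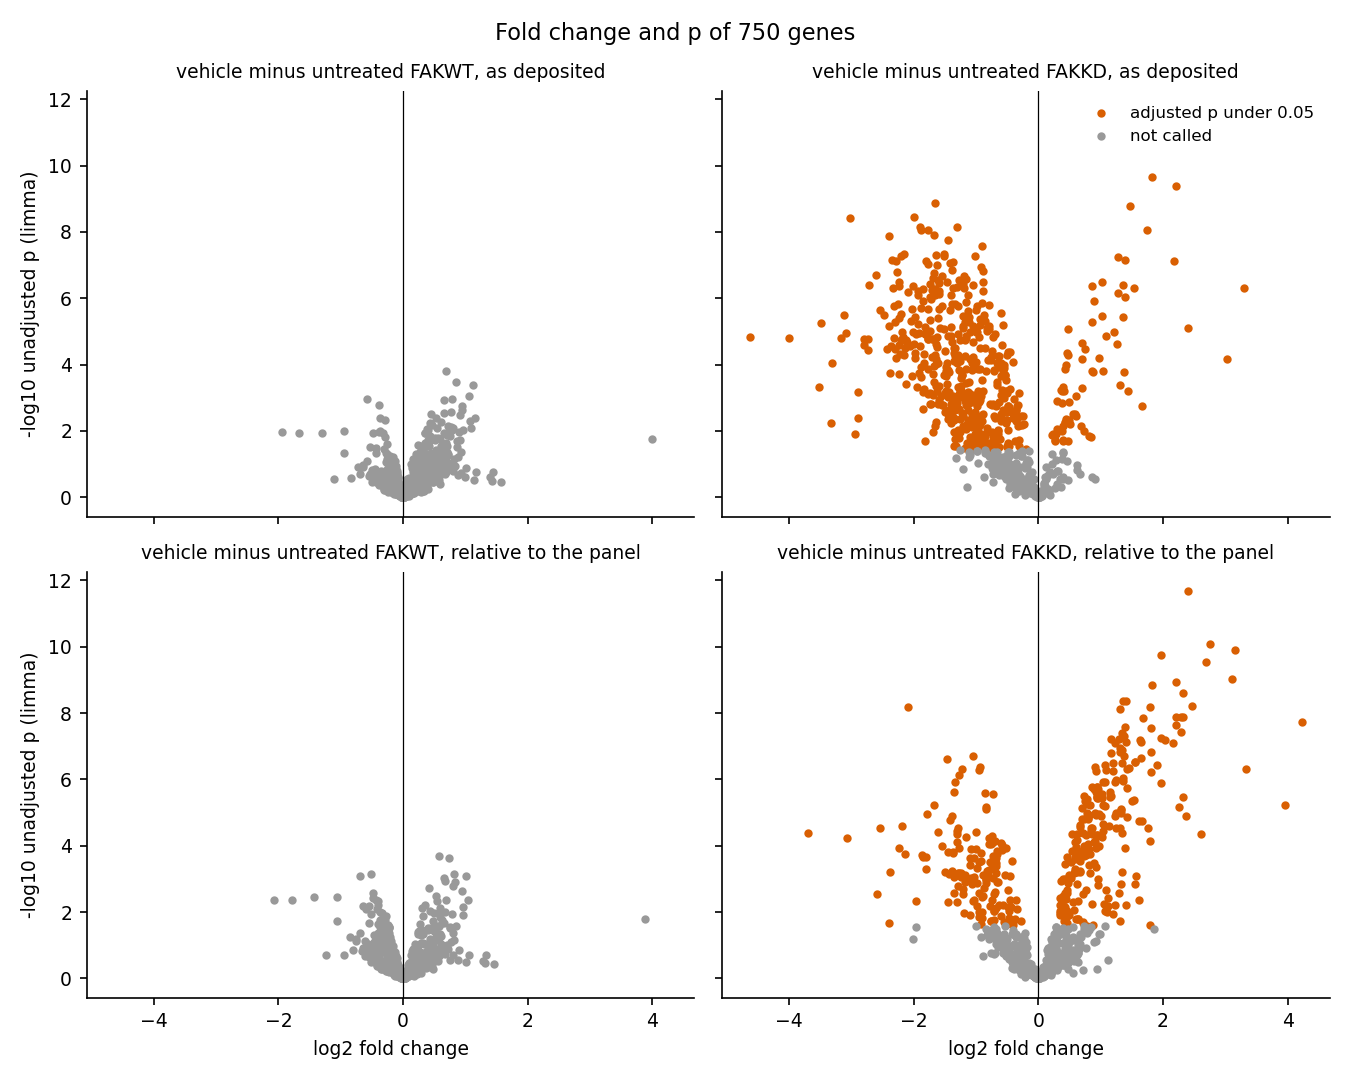
Log2 fold change (x axis) against -log10 of the unadjusted limma p (y axis) for 750 genes, with vehicle minus untreated FAKWT on the left and vehicle minus untreated FAKKD on the right, with deposited values in the upper row and values relative to the panel in the lower row. Orange points have an adjusted p under 0.05: there are none on the left, and 543 (upper) and 383 (lower) on the right.

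The series title names the CD155/TIGIT axis. CD155, encoded by Pvr, is a ligand on tumour and myeloid cells. TIGIT is an inhibitory receptor that binds it on T and NK cells, Cd96 is another receptor for it, and nectin 2, encoded by Pvrl2, is a second ligand of TIGIT. Normalized counts of Pvr were 400, 417 and 440 in vehicle replicates 3, 4 and 9, against 463, 445 and 496 in untreated FAKWT replicates 1, 2 and 3. All 3 vehicle samples lay just below the untreated ones as deposited, while relative to the panel the groups overlapped. The log2 fold change of Pvr was -0.16 ± 0.12 (SE, limma adjusted p = 0.68, 95% interval -0.43 to 0.11) as deposited and -0.27 ± 0.17 relative to the panel (limma adjusted p = 0.55). Pvrl2 had 1900, 1990 and 2014 with vehicle, against 2370, 2648 and 2218 in untreated FAKWT, with no overlap on either scale. Its log2 fold change was -0.29 ± 0.08 as deposited (SE, limma adjusted p = 0.19), with an interval of -0.47 to -0.11, and -0.41 ± 0.12 relative to the panel (limma adjusted p = 0.17). Tigit had 33.8, 46.6 and 47.5 with vehicle and 45.5, 22.5 and 29.7 in untreated FAKWT, and Cd96 had 9.75, 17.9 and 7.91 with vehicle and 11.2, 14.7 and 7.43 in untreated FAKWT. Both genes overlapped between the groups, and their intervals reached well past 0.5 (for Tigit -0.33 to 1.19 and for Cd96 -0.82 to 0.93, as deposited). Cd96 had a mean recovered count of 14.6, under 20, where counting error is largest. Of the 4 measured genes of this axis 0 were called (0% of the panel). Both ligands thus had lower means with vehicle, and neither difference passed the test.

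Among the markers of tumour cells, Epcam was the farthest apart between the groups and Msln the closest. Msln, which encodes the mesothelin coat protein of ovarian tumours, had 4607, 3568 and 4066 normalized counts with vehicle, against 4077, 4285 and 4158 in untreated FAKWT (log2 fold change -0.04 ± 0.10, SE, limma adjusted p = 0.93). For Cdh1, the epithelial cadherin, the values were 65.3, 64.5 and 43.1 with vehicle and 50.8, 65.1 and 66.0 in untreated FAKWT. Both genes overlapped between the groups. Epcam, an epithelial adhesion protein, gave 128, 117 and 137 with vehicle, against 187, 176 and 171 in untreated FAKWT. The Epcam groups did not overlap, but its log2 fold change of -0.49 ± 0.16 (SE) had a limma adjusted p of 0.20, and relative to the panel it was -0.60 ± 0.19 with an adjusted p of 0.18. Itgb4, the integrin chain of hemidesmosomes, had a log2 fold change of -0.39 ± 0.13 (SE, limma adjusted p = 0.20), and its groups overlapped. The 4 tumour markers summed to 5383, 4246 and 4955 normalized counts with vehicle and to 5136, 5211 and 5222 in untreated FAKWT. Over the list of 11 epithelial and tumour genes the median log2 fold change was -0.05 as deposited and -0.17 relative to the panel, against 0.06 and -0.06 over the panel, with 4 and 1 members positive. All 11 intervals lay within 2-fold as deposited, and 9 did relative to the panel. Birc5, the survivin gene of dividing cells, had 545, 690 and 636 with vehicle, against 597, 637 and 576 in untreated FAKWT (log2 fold change 0.04 ± 0.15, SE, limma adjusted p = 0.96).

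MHC class II genes stood higher with vehicle than any other list, without a call. MHC class II molecules present peptides from engulfed material to CD4+ T cells. They are pairs of an alpha and a beta chain, made here by H2-Aa, H2-Ab1 and H2-Eb1, and are loaded with the help of Cd74, the invariant chain, and of H2-DM. The co-activator Ciita switches the genes on together, through short boxes in front of each. Normalized counts of H2-Aa were 8320, 7965 and 4594 in vehicle replicates 3, 4 and 9, against 3123, 3518 and 3857 in untreated FAKWT replicates 1, 2 and 3. H2-Eb1 had 1948, 1615 and 1032 with vehicle and 673, 742 and 924 in untreated FAKWT. For Ciita the values were 83.3, 68.1 and 56.8 with vehicle and 38.9, 34.1 and 47.9 in untreated FAKWT. None of these 3 genes overlapped between the groups, and in each of them vehicle replicate 9 was the lowest vehicle sample. Log2 fold changes as deposited were 0.95 ± 0.24 for H2-Aa (SE, limma adjusted p = 0.17), 0.94 ± 0.23 for H2-Eb1 (SE, limma adjusted p = 0.15) and 0.78 ± 0.18 for Ciita (SE, limma adjusted p = 0.125). H2-Ab1, the partner chain of H2-Aa, gave 0.92 ± 0.25 (SE, limma adjusted p = 0.17). The 4 values relative to the panel were 0.83, 0.82, 0.66 and 0.80, with limma adjusted p-values from 0.1 to 0.12.

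The promoters of H2-Aa and H2-Eb1 are printed because the boxes read by the Ciita complex lie in such windows. They run from 250 bases before to 50 bases after the start in RefSeq on build GRCm38.p6, H2-Aa at chr17:34287774-34288073 on the minus strand and H2-Eb1 at chr17:34305617-34305916 on the plus strand. Capitals mark CTGATTGG, the core of the Y box, a sequence bound by the factor NF-Y.
H2-Aa: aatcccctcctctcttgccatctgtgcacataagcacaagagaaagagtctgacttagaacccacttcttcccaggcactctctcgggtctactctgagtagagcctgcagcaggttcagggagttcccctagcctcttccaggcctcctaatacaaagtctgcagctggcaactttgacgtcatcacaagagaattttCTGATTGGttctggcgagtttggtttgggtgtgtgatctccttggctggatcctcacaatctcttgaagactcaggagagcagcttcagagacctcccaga
H2-Eb1: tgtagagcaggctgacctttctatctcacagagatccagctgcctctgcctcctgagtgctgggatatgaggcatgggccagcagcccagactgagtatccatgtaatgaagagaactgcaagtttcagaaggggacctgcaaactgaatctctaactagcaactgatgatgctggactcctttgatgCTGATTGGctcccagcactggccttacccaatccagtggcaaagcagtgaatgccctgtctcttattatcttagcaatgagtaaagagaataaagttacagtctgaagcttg
The capitals start 51 bases before the start of H2-Aa and 62 bases before that of H2-Eb1. Searched on both strands, these letters were found in 2 of the 7 MHC class II genes of the list that had a promoter in the table, and in 4.1% of all 32851 promoters of the same length. A match is a description of the sequence and no measurement of binding.

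Among the 11 measured MHC class II genes, 10 had a positive log2 fold change and 0 were called (0% of the panel). The list's median was 0.72 as deposited and 0.60 relative to the panel, against 0.06 and -0.06 over all 750 genes. Vehicle samples lay wholly above untreated ones for 7 of the 11 as deposited, where 12% of the panel did, and for 8 relative to the panel, where 8.8% did. Cd74 had 19221, 14590 and 9463 normalized counts with vehicle, against 7427, 8419 and 9666 in untreated FAKWT, so vehicle replicate 9 overlapped the untreated range (log2 fold change 0.71 ± 0.24, SE, limma adjusted p = 0.21). Ctss, the protease that trims the invariant chain, had 4261, 3727 and 3223 with vehicle and 2380, 2727 and 3011 in untreated FAKWT (0.46 ± 0.14, SE, limma adjusted p = 0.20). H2-DMb1 and H2-DMb2, chains of the peptide loader, gave 0.80 and 0.72, and H2-Ob, which restrains that loader, gave 0.33 with overlapping groups. The result turned on a single library: without vehicle replicate 9, limma called H2-Aa, H2-Ab1 and H2-Eb1, with log2 fold changes of 1.22, 1.19 and 1.199 as deposited (adjusted p = 0.049) and 1.06, 1.02 and 1.03 relative to the panel (adjusted p = 0.030). With sample weights they were called relative to the panel, with an adjusted p of 0.045. Markers of the cells that can carry MHC class II were given beside it. The 9 macrophage markers summed to 54475.6 to 71823.5 normalized counts with vehicle and 40027.6 to 55918.8 in untreated FAKWT. Most of that sum was Lyz2 alone, and Cd14 and Ccr2 had mean recovered counts of 16.6 and 14.7. All 9 had a positive log2 fold change on both scales, with medians of 0.38 as deposited and 0.26 relative to the panel. The 6 B cell markers summed to 660 to 1124 with vehicle and 588 to 919 in untreated FAKWT. The part of these cells in the MHC class II values was not tested.

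**Figure D3:**
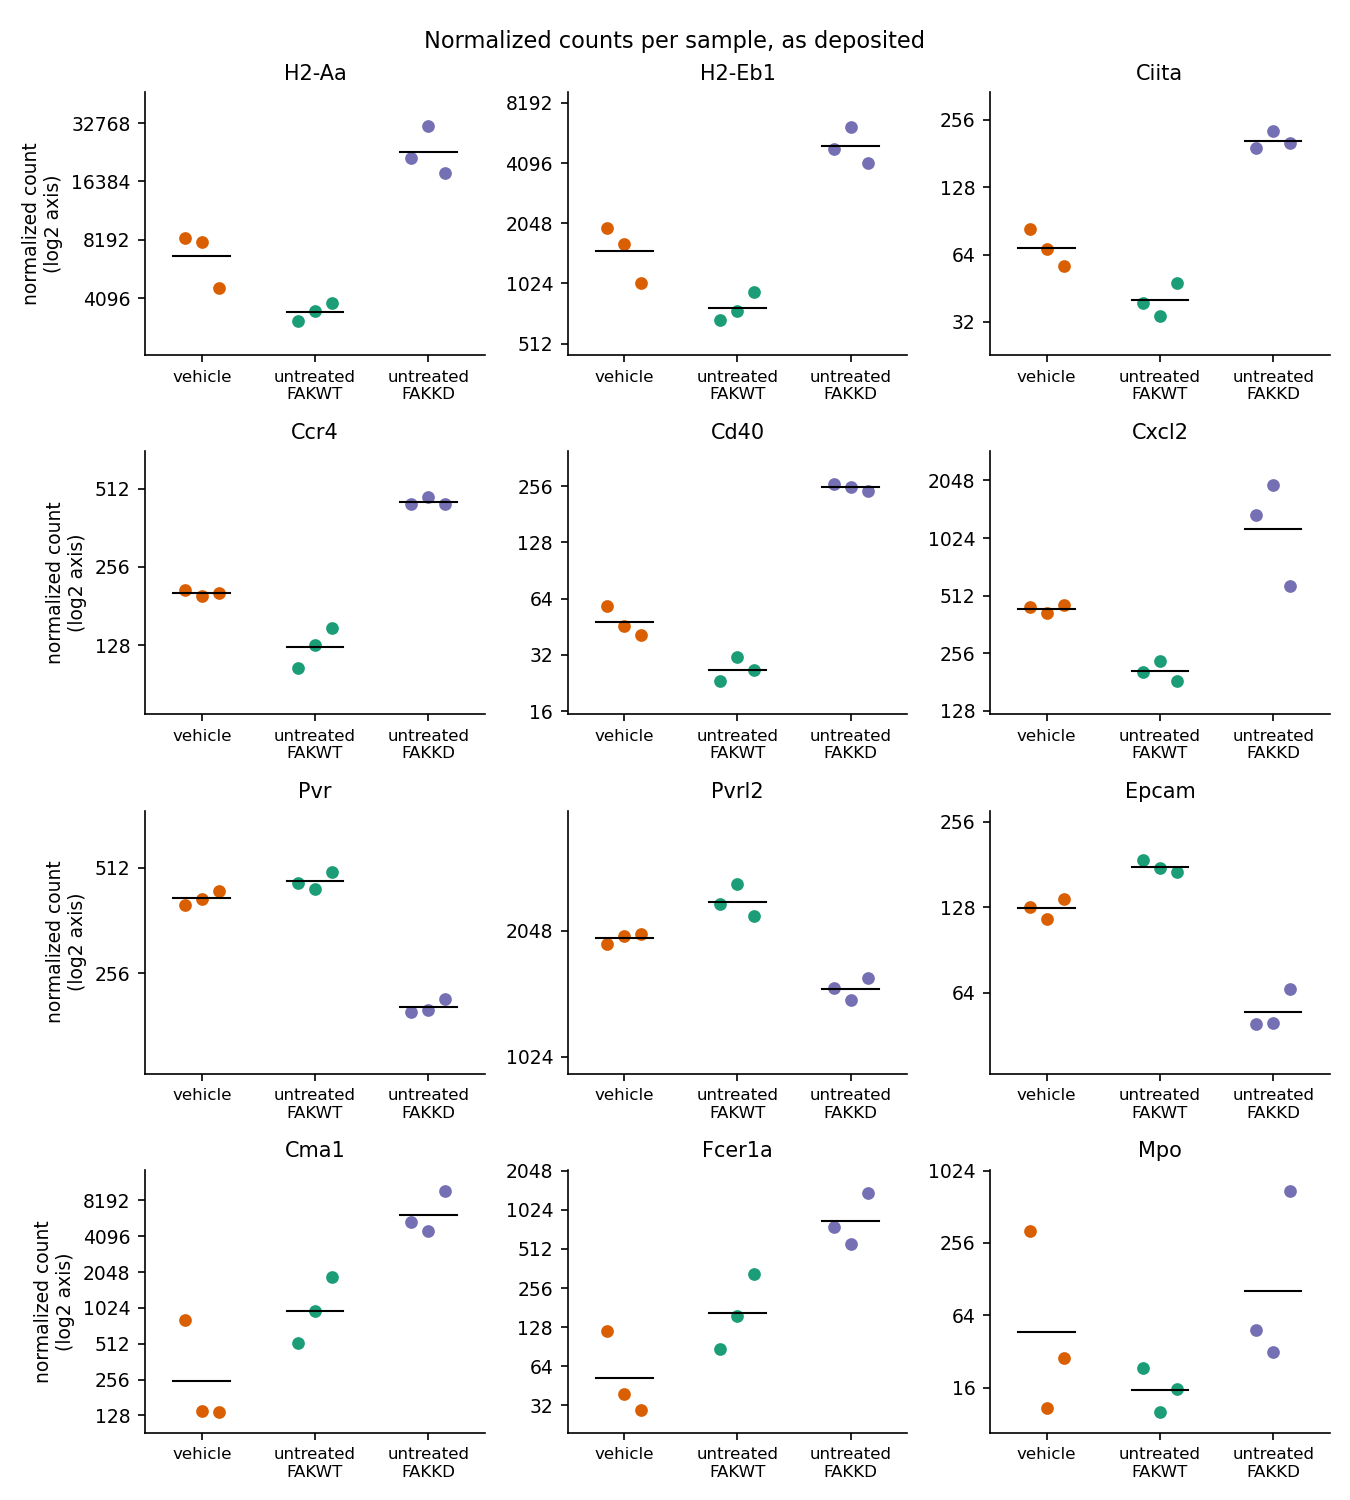
Normalized counts as deposited (y axis, log2 spacing) of 12 genes, 1 point a sample, in vehicle, untreated FAKWT and untreated FAKKD, with bars at the mean of the log2 values. Vehicle points for H2-Aa, H2-Eb1, Ciita, Ccr4, Cd40 and Cxcl2 lie above the untreated FAKWT points and below those of FAKKD, and 1 vehicle sample (replicate 3) is high for Cma1, Fcer1a and Mpo.

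The smallest p-values belonged to Ccr4, Cd40 and Ccl28. Ccr4, a chemokine receptor of helper and regulatory T cells, had 209, 198 and 203 normalized counts with vehicle, against 104, 129 and 149 in untreated FAKWT. The vehicle samples were tightly grouped, and the lowest of them stood above the highest untreated sample. Its log2 fold change was 0.69 ± 0.12 as deposited (SE, limma adjusted p = 0.101) and 0.58 ± 0.11 relative to the panel (limma adjusted p = 0.0899). Without untreated FAKWT replicate 3 it was called as deposited, at 0.81 with an adjusted p of 0.034. Cd40, a receptor through which T cells license antigen-presenting cells, had 58.5, 45.7 and 41.0 with vehicle and 23.1, 31.0 and 26.4 in untreated FAKWT (0.85 ± 0.17, SE, limma adjusted p = 0.101). Relative to the panel it gave 0.73 ± 0.14 (limma adjusted p = 0.0899), and without vehicle replicate 9 it was called as deposited, at 0.96 with an adjusted p of 0.049. Ccl28, a chemokine of mucosal surfaces, had 227, 219 and 342 with vehicle, against 84.4, 137 and 140 in untreated FAKWT, a log2 fold change of 1.13 ± 0.23 (SE, limma adjusted p = 0.101). Egr3, an early response transcription factor, gave 31.5, 32.3 and 33.1 with vehicle and 15.8, 12.4 and 19.0 in untreated FAKWT (1.06 ± 0.24, SE, limma adjusted p = 0.125). Lower means with vehicle and groups that did not overlap were found for Ceacam1, an adhesion receptor of epithelial and myeloid cells, at -0.57 ± 0.13 (SE, limma adjusted p = 0.125), and for Col4a1, a basement membrane collagen, at -0.39 ± 0.10 (SE, limma adjusted p = 0.145). Without vehicle replicate 9, Ceacam1 was called relative to the panel, at -0.84 with an adjusted p of 0.030.

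Macrophage genes had slightly higher means with vehicle. Macrophages are the main myeloid cell of ascites and are known by Csf1r, the receptor for their growth factor, and by the C1q chains they secrete. Csf1r had 1229, 1086 and 945 normalized counts with vehicle, against 776, 1088 and 968 in untreated FAKWT, which overlapped (log2 fold change 0.21 ± 0.12, SE, limma adjusted p = 0.58). C1qa had 4234, 3219 and 3011 with vehicle and 2171, 2885 and 2980 in untreated FAKWT, separated by a narrow gap (0.38 ± 0.15, SE, limma adjusted p = 0.31). Cybb, the NADPH oxidase subunit, had 2245, 1903 and 1728 with vehicle and 1433, 1428 and 1439 in untreated FAKWT (0.44 ± 0.12, SE, limma adjusted p = 0.17). For Mrc1, the mannose receptor, the values were 629.5, 583 and 587 with vehicle and 308, 385 and 512.5 in untreated FAKWT (0.61 ± 0.18, SE, limma adjusted p = 0.195). Of 26 macrophage and monocyte genes, 24 had a positive log2 fold change as deposited and 20 relative to the panel, 0 were called, and the medians were 0.26 and 0.14. Groups did not overlap, with vehicle higher, for 9 of the 26 as deposited (12% of the panel) and 7 relative to the panel (8.8%). Genes of alternative activation had medians of 0.08 and -0.04, near the panel's own, and for Arg1, the arginase of suppressive macrophages, the groups overlapped: 3480, 6487 and 9157 with vehicle, against 7212, 7289 and 4889 in untreated FAKWT. Ptgs2, which makes prostaglandins, overlapped as well, with 954, 1419 and 1263 with vehicle and 1463, 1401 and 1215 in untreated FAKWT.

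Among the MHC class I genes, which show a cell's own peptides to CD8+ T cells, 13 of 16 were positive as deposited and 12 relative to the panel, with medians of 0.34 and 0.23 and 0 calls. Nlrc5, the class I counterpart of Ciita, had 164, 140 and 84.1 normalized counts with vehicle, against 65.9, 72.9 and 62.7 in untreated FAKWT, a log2 fold change of 0.89 ± 0.29 (SE, limma adjusted p = 0.20). H2-K1, a class I heavy chain, had 1883, 2214 and 1390 with vehicle and 1149, 979 and 1197 in untreated FAKWT (0.70 ± 0.23, SE, limma adjusted p = 0.20). Neither gene overlapped between the groups. Interferon response genes, a list that shares no member with the class I list, had medians of 0.07 and -0.04 over 40 members, close to those of the panel.

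Inflammatory cytokines and chemokines had medians of 0.32 as deposited and 0.20 relative to the panel over 33 genes, with 0 calls. Cxcl2, a neutrophil attractant, had 446, 415 and 454 normalized counts with vehicle, against 205, 234 and 184 in untreated FAKWT, so that the groups were well apart. Its log2 fold change was 1.08 ± 0.34 with a limma adjusted p of 0.20 in the fit over all 12 samples, and in a fit of only the 6 samples compared it was called as deposited, with an adjusted p of 0.022. The 3 FAKKD samples, which share the spread estimate of the larger fit, ranged from 571 to 1940. Il1a, an alarm cytokine, had 98.3, 65.4 and 99.9 with vehicle and 31.6, 39.5 and 54.5 in untreated FAKWT (1.08 ± 0.31, SE, limma adjusted p = 0.195). Ccr9, a gut-homing receptor, had 245, 158 and 201 with vehicle and 76.5, 86.8 and 105 in untreated FAKWT (1.16 ± 0.32, SE, limma adjusted p = 0.18). The list of NF-kB and TNF signalling, a pathway that drives such cytokines, went the other way in its median, at -0.04 and -0.16 over 28 genes, and 26 of its intervals lay within 2-fold as deposited.

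Mast cell genes had the lowest list median with vehicle, and the vehicle samples differed widely among themselves. Mast cells are tissue-resident granulocytes that carry the high-affinity IgE receptor, to which Fcer1a and Ms4a2 contribute, and granules of proteases such as Cma1 and Tpsab1. Cma1 had 819, 141 and 137 normalized counts in vehicle replicates 3, 4 and 9, against 517, 956 and 1849 in untreated FAKWT replicates 1, 2 and 3. Replicates 4 and 9 lay below every untreated sample, and replicate 3 lay inside the untreated range. Fcer1a followed the same order, with 120, 39.4 and 29.5 with vehicle and 87.0, 157 and 331 in untreated FAKWT. Il1rl1, the receptor for IL-33, had 115, 56.4 and 33.8 with vehicle and 91.7, 151 and 239 in untreated FAKWT. Log2 fold changes were -1.95 ± 0.64 for Cma1, -1.67 ± 0.56 for Fcer1a and -1.31 ± 0.44 for Il1rl1 (SE), each with a limma adjusted p of 0.20. Relative to the panel they were -2.07, -1.79 and -1.42 with a limma adjusted p of 0.147. There Il1rl1 no longer overlapped, but vehicle replicate 3 was nearly tied with untreated FAKWT replicate 1. Cma1 was called relative to the panel without vehicle replicate 3, at -2.88 with an adjusted p of 0.019. All 5 measured mast cell markers had lower means with vehicle, with a median of -0.73 as deposited and -0.84 relative to the panel. Their normalized counts summed to 1031, 249 and 212 with vehicle and to 660, 1200 and 2346 in untreated FAKWT, so both groups were widely spread and overlapped. For the 11 genes of mast cells and eosinophils the medians were -0.43 and -0.54, with 3 and 2 members positive and 0 called.

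The vehicle samples differed most from each other in a mixed set of genes, among them Mpo, Elane and Ctsg of myeloid granules, the lectin CD209e and the mast cell genes Cma1 and Fcer1a. Of genes with a mean recovered count of at least 20, the 12 with the largest SD over the 3 vehicle samples relative to the panel were Mpo, CD209e, Ctsg, Elane, S100a8, Cma1, Gbp2b, Fcer1a, Cxcl13, Arg1, Xcl1 and Il1rl1. For 7 of the 12 vehicle replicate 3 was the sample farthest from the others, on the high side. Mpo, the peroxidase of neutrophil granules, had 323, 10.7 and 28.04 normalized counts in vehicle replicates 3, 4 and 9, against 23.1, 10.1 and 15.7 in untreated FAKWT. Elane, neutrophil elastase, had 179, 10.7 and 36.7 with vehicle and 23.7, 10.9 and 14.0 in untreated FAKWT. S100a8, a calcium-binding protein abundant in neutrophils, had 5009, 647 and 1731 with vehicle and 606, 1953 and 451 in untreated FAKWT. Vehicle replicate 3 was the highest of the 6 samples for all 3 genes, and the groups overlapped for each. Camp, which encodes an antimicrobial peptide of neutrophil granules, was not among the 12, with 49.5, 51.1 and 35.2 with vehicle and 25.7, 42.6 and 42.9 in untreated FAKWT. CD209e, a lectin of the DC-SIGN family, had 301, 16.1 and 74.1 with vehicle, against 12.5, 8.53 and 0.825 in untreated FAKWT, the last being a single recovered count. It had the highest log2 fold change of the panel, 3.998 ± 1.43 (SE, limma adjusted p = 0.25), with an interval of 0.85 to 7.15, and its groups did not overlap. The 5 neutrophil markers summed to 5325, 1044 and 2005 normalized counts with vehicle and 820, 2658 and 742 in untreated FAKWT. S100a8 made up 5009 of the 5325 in vehicle replicate 3. Among the other markers, Ltf was also highest there, at 24 recovered counts. Cxcr2 and Csf3r were instead highest in untreated FAKWT replicate 2, at 339 and 503 recovered counts, against 115 and 217 in vehicle replicate 3. The 19 neutrophil genes had medians of 0.31 as deposited and 0.19 relative to the panel, with 0 called. Over the 602 genes with a mean recovered count of at least 20, relative to the panel, vehicle replicate 3 was the farthest of the vehicle samples on the high side for 117 and on the low side for 113, so it did not stand apart in one direction. The median SD of a gene was 0.23 within vehicle and 0.22 within untreated FAKWT as deposited, and 0.21 and 0.20 relative to the panel.

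Lymphocyte genes differed little in the middle of their lists, but Cd3e and most cytotoxic T and NK genes rested on few counts. Ms4a1, the CD20 gene of B cells, had 392, 181 and 188 normalized counts with vehicle, against 177, 255 and 366 in untreated FAKWT, and Cd79b, a B cell receptor chain, had 315, 170 and 150 with vehicle and 128, 241 and 256 in untreated FAKWT. Both overlapped, and the 19 B cell genes had medians of 0.08 and -0.03. Cd3e, a chain of the T cell receptor complex, had 19.5, 24.2 and 17.98 with vehicle and 11.2, 17.1 and 11.6 in untreated FAKWT (log2 fold change 0.65 ± 0.25, SE, limma adjusted p = 0.31), with recovered counts of 14 to 27. Medians were 0.13 and 0.01 over 21 T cell genes and 0.11 and -0.00 over 32 genes of cytotoxic T and NK cells. Of those 32 genes, 22 had a mean recovered count under 20, and 17 had intervals within 2-fold as deposited. Their median therefore says little about whether these cells differed. Pdcd1, the checkpoint receptor PD-1, had 110, 198 and 221 with vehicle and 115, 72.1 and 79.2 in untreated FAKWT (0.96 ± 0.31, SE, limma adjusted p = 0.20), and the groups overlapped through vehicle replicate 3. The 23 checkpoint and costimulation genes had medians of 0.16 and 0.05. Of 31 complement genes and 31 integrins and adhesion genes 0 were called, with medians of 0.13 and 0.01 and of 0.00 and -0.11.

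**Figure D4:**
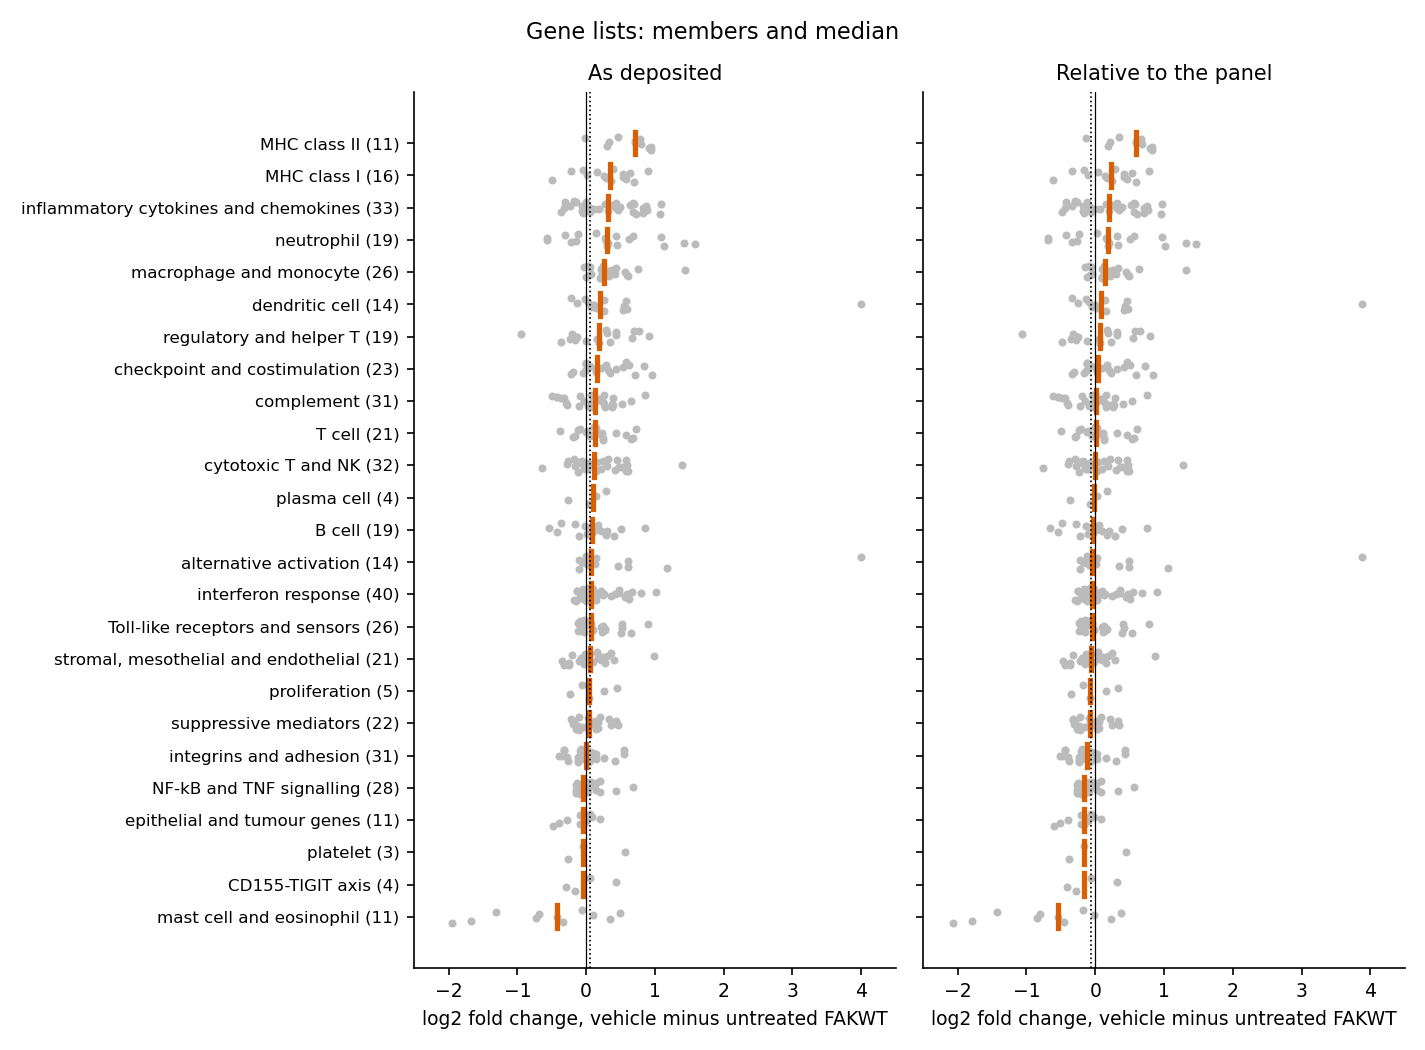
Log2 fold change of vehicle minus untreated FAKWT (x axis) for the members of 25 gene lists (grey points, number measured in brackets), with list medians in orange and the median of all 750 genes as a dotted line, as deposited on the left and relative to the panel on the right. MHC class II has the highest median (0.72 and 0.60) and mast cells and eosinophils the lowest (-0.43 and -0.54), and none of the points was called.

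Against untreated FAKKD, whose name stands in their genotype field, the same vehicle samples differed in most of the panel. Limma called 543 genes as deposited (72.4%), 71 higher and 472 lower with vehicle, and 383 relative to the panel (51.1%), 233 higher and 150 lower. The vehicle mean lay nearer the untreated FAKWT mean than the FAKKD mean for 671 genes (89.5%) as deposited and 591 (78.8%) relative to the panel. Of the 11 epithelial and tumour genes, 10 were called higher with vehicle than in FAKKD on both scales, where 9.47% and 31.1% of the panel were. Pvr had 400 to 440 normalized counts with vehicle and 199 to 217 in FAKKD, a log2 fold change of 1.03 ± 0.12 (SE, limma adjusted p = 2.5e-05). Of the 11 MHC class II genes, 10 were called lower with vehicle as deposited and 9 relative to the panel, against 62.9% and 20% of the panel, and H2-Aa differed by -1.78 ± 0.24 (SE, limma adjusted p = 6.4e-05). All 5 mast cell markers were called lower on both scales, with Cma1 at -4.63 ± 0.64 (SE, limma adjusted p = 6.7e-05). These single-gene values are as deposited. The panel median was 6.78 with vehicle and 7.71 in FAKKD, so relative to the panel each log2 fold change is higher. The comparisons with untreated FAKWT and with FAKKD use the same 3 vehicle samples. Genes with a higher mean with vehicle than in untreated FAKWT, such as H2-Aa, Ciita and Cd40, still stood below FAKKD, and Epcam and Pvr, lower in mean than in untreated FAKWT, stood above it.

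The choice of control can be read from the inhibitor samples, set against each of the FAKWT groups in turn. Both contrasts share the 3 inhibitor samples, so their values are placed side by side without a test between them. Limma called 448 genes for inhibitor minus vehicle (59.7%) and 482 for inhibitor minus untreated FAKWT (64.3%) as deposited, and 349 (46.5%) and 388 (51.7%) relative to the panel. Single genes below are as deposited unless stated. The panel median was 7.52 with the inhibitor, 6.78 with vehicle and 6.66 in untreated FAKWT. Relative to the panel every inhibitor fold change is therefore lower, against either control. Birc5 gave log2 fold changes of -3.49 against vehicle and -3.45 against untreated FAKWT, Arg1 gave -2.49 and -2.59, and Ptgs2 gave -2.36 and -2.54. For these 3 genes the control made a difference of at most 0.18. The mast cell genes depended on it more, with Cma1 at 3.69 against vehicle and 1.74 against untreated FAKWT and Fcer1a at 3.16 and 1.49. Relative to the panel Cma1 was called against vehicle, at 2.95 (limma adjusted p = 0.0013), and not against untreated FAKWT, at 0.88 (limma adjusted p = 0.24). Pdcd1 was at -2.51 against vehicle and -1.55 against untreated FAKWT, and Chil3, a lectin secreted by macrophages and neutrophils, at -3.46 and -2.28. The order was the reverse for H2-Aa, at 1.75 against vehicle and 2.70 against untreated FAKWT, for Cd40, at 2.22 and 3.07, and for Cxcl2, at 1.24 and 2.33. Pvr was called lower with the inhibitor against both controls, at -0.49 (limma adjusted p = 0.0044) and -0.65 (limma adjusted p = 0.00063). Pvrl2 was called against untreated FAKWT, at -0.29 (limma adjusted p = 0.0087), and not against vehicle, at -0.00 with an interval of -0.18 to 0.18, but relative to the panel it was called against both, at -0.74 and -1.15. The difference between each such pair is vehicle minus untreated FAKWT itself, for which no gene passed the test.

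**Figure D5:**
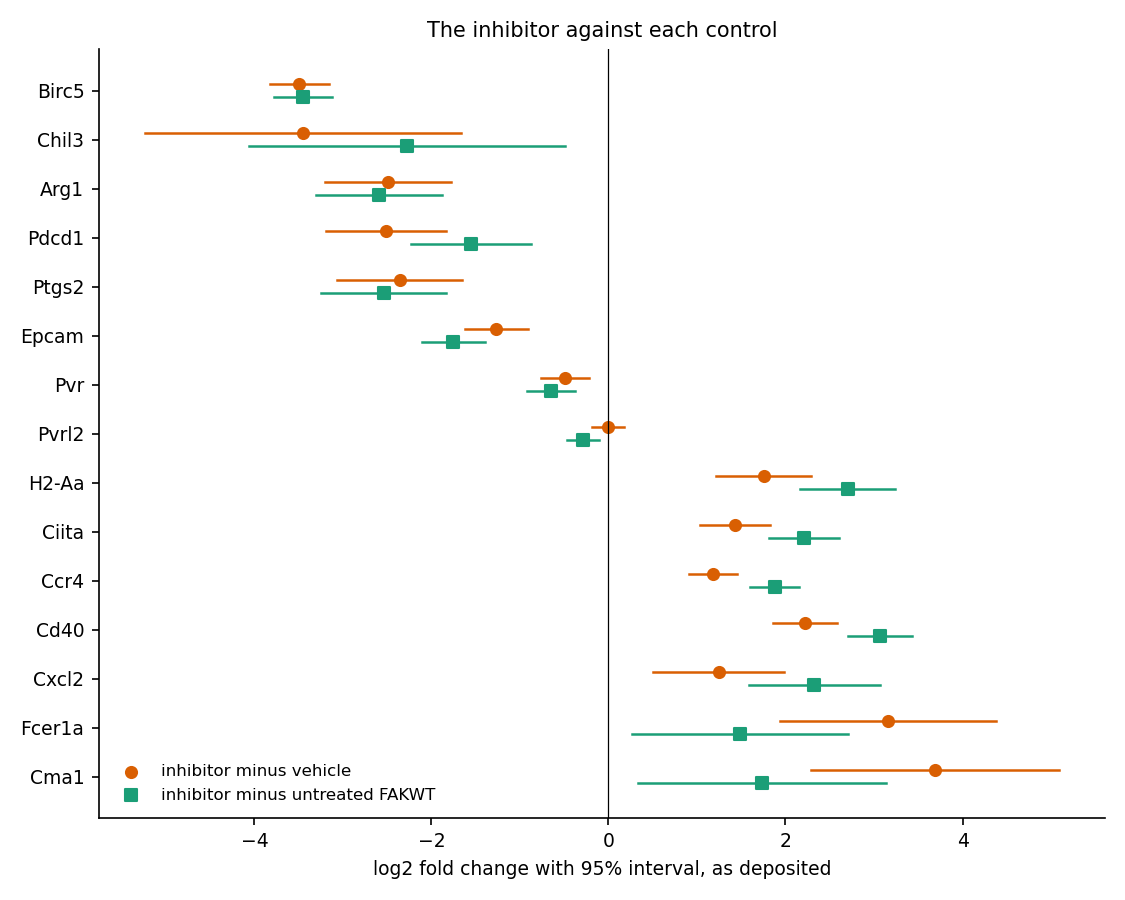
Log2 fold change as deposited with its 95% interval (x axis) for 15 genes (y axis), inhibitor minus vehicle as orange circles and inhibitor minus untreated FAKWT as green squares. Birc5, Arg1 and Ptgs2 nearly coincide, while Cma1 and Fcer1a are farther from 0 against vehicle and H2-Aa and Cd40 are farther from 0 against untreated FAKWT.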

How the data were processed

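Values are log2 normalized counts deposited by the authors in one table of 750 genes and 12 samples. How they were normalized, and with which program, is not given in the sources used here. On conversion from log2, 100% of values in every sample were whole counts times a factor (tolerance 0.01), and 148 genes had a mean recovered count under 20. Replicates of a group differed by more than counting error, with a chi-square of 8.35 to 59.6 per degree of freedom, so none was counted as a duplicate. Of 750 symbols, 736 matched a current RefSeq symbol and 8 a synonym.

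Tests used limma 3.58.1 in R 4.3.3: 4 group means fitted to all 12 samples, eBayes with trend, two-sided, Benjamini-Hochberg over 750 genes at 0.05, as deposited and after shifting each sample to a common panel median. No filter or pseudocount was applied. The fit was also run on simulated data with the spread of the noisiest genes capped, so that run does not bear on those genes. Errors of fold changes are moderated standard errors, and intervals are 95%. Recovered counts carry counting error, and replicates of a group differed by more than that.

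The comparison, the members and 25 gene lists (424 genes, 55 on several) were chosen with earlier results of these data known. Lists are described by counts and medians. Platelet, plasma cell, stromal, dendritic, Toll-like receptor, suppressive, proliferation and helper T lists had 0 calls as well. Erythroid markers were not measured in the table. The rule named CD155-TIGIT genes, up to 4 members of each list by p, cell type markers, and the 12 genes of widest spread within vehicle. Ccl28, Egr3, Col4a1, Ccr9, Chil3, Ptgs2, Birc5, Cd74, Ctss, H2-DMb1, H2-DMb2 and H2-Ob were chosen after their values were seen. Alternatives were other scalings, filters, variance models, sample weights, thresholds, fits of the 6 samples compared, and leaving out each sample. Summaries used Python 3.11.15, and figures matplotlib 3.10.9.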

Additional observations from a re-analysis of the deposited data

How the results depend on the processing

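Between vehicle and untreated FAKWT the count of genes called by limma stayed at 0 on both scales under quantile normalization, scaling to total recovered counts, removal of the lowest 25% of genes by mean, removal of genes with a mean recovered count under 20, and eBayes without trend or robust. It became 1 as deposited in a fit of only the 6 samples compared (Cxcl2) and 5 relative to the panel with sample weights (Ccr4, Cd40, H2-Aa, H2-Ab1 and H2-Eb1). At an adjusted p of 0.1 it was 0 as deposited and 2 relative to the panel, and at an unadjusted p of 0.05 it was 93 and 99. Leaving out each sample in turn gave 0 to 4 genes as deposited and 0 to 4 relative to the panel. The 4 came without vehicle replicate 9, and 1 each came without untreated FAKWT replicate 3 (Ccr4, as deposited) and without vehicle replicate 3 (Cma1, relative to the panel), while the cause was not tested. The median log2 fold change over all genes ran from 0.01 to 0.12 as deposited and from -0.07 to -0.04 relative to the panel over those fits. Of 56 named genes, 47 kept one sign under every setting as deposited and 50 relative to the panel. Counts for vehicle minus FAKKD ran from 473 to 546 and from 341 to 371 when each sample was left out, and were 544 and 378 without trend and 502 and 360 with only those 6 samples. No paired analysis was possible between vehicle and untreated FAKWT because their titles share only number 3. With the replicate number as a block, vehicle minus FAKKD gave 401 genes as deposited and 266 relative to the panel. The deviations of same-numbered vehicle and FAKKD samples correlated at -0.22 for number 3 and 0.35 for number 4, and those of vehicle and untreated FAKWT number 3 at 0.01, so pairing was not established. Of genes whose interval reached past 2-fold, 93 of 212 as deposited and 78 of 187 relative to the panel had a mean recovered count under 20.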
